A study of Mus musculus with 16 samples.

Results

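Secreted myokines outside the cytokine families were examined here as 10 genes chosen by symbol: Fgf21, Fndc5, Il15, Bdnf, Metrnl, Sparc, Apln, Dcn, Spp1 and Ostn. All 10 were found among the 48432 gene identifiers of the deposited table, and 9 of them passed the filter on low counts. The cells were C2C12, an established mouse myoblast line, used at passages 4 to 8 and fused into contractile myotubes over 5 days of differentiation. Control myotubes were left unstimulated, and the others received electrical pulse stimulation (EPS), in which pulses of 6 ms at 1 Hz (duty cycle 0.6%) with a field of 2.75 V/mm drive contraction and the polarity is switched at 0.5 Hz. How long the pulses lasted was not given. Cellular RNA was sequenced from 4 control and 4 EPS libraries, each run on 2 lanes, so a secreted protein was seen here only through its mRNA. A single cell line without nerve or vessels stood for muscle, and the labels name no separate cultures behind the libraries. The p-values therefore reflect library-to-library spread alone, which may be technical.

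Myokines are proteins that muscle releases and that act on muscle itself or on distant organs such as liver, fat, bone and brain. Fgf21 is a hormone of fasting and of mitochondrial and endoplasmic reticulum stress, transcribed under ATF4, and Fndc5 is the membrane protein from which irisin is shed, described as a target of the coactivator PGC-1α (Ppargc1a). Il15 signals bound to its own receptor chain, Bdnf is a neurotrophin, Metrnl, Apln and Ostn are small secreted factors of fat, vessels and bone, and Sparc, Dcn and Spp1 are proteins of or beside the extracellular matrix.

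The stretches before the annotated start sites of 3 of these genes are shown because their mRNAs differ in direction or in how firmly they differed between the groups below. They are the 250 bases upstream of the start in RefSeq (GRCm38.p6), 5′ to 3′ on the strand of the gene. Capitals mark TTGCATCA, 1 form of the ATF4 composite site, and a TATAAA box in Fgf21 (chr7:45615491-45615740, minus strand). They mark E-boxes (CANNTG, the motif of MyoD and myogenin) in Apln (chrX:48034854-48035103, minus strand), and ACGTG, the core of the hypoxia response element, in Fndc5 (chr4:129136749-129136998, plus strand).
Fgf21: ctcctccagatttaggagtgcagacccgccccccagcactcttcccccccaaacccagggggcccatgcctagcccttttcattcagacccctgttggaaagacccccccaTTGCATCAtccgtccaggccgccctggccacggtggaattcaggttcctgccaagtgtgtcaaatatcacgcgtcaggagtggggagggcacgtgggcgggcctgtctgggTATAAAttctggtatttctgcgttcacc
Apln: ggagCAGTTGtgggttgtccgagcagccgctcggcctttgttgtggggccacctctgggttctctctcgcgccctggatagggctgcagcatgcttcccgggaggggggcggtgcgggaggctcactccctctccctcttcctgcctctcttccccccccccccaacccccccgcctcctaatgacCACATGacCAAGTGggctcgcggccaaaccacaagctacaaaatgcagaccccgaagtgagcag
Fndc5: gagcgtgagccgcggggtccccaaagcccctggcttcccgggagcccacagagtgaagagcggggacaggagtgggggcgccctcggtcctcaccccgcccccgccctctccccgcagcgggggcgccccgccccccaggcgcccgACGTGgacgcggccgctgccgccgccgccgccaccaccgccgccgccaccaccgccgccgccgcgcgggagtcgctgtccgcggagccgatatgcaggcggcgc

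The ATF4 form in Fgf21 began at position -139 and the TATA box at -28, counting back from -1 at the base before the start, and ACGTG in Fndc5 began at -104. Both strands were searched for 8 motifs, and a match describes these letters only. Of 32851 RefSeq windows of the same length, 0.791% held TTGCATCA, 12.4% held TATAAA, 16.6% held ACGTG and 66.2% held CANNTG, so the E-box is a common string and the ATF4 form a rare one. The ACGTG core lies inside the E-box form CACGTG, and capitals mark only the motifs named for each gene. Left in lower case, the Fgf21 window also held 2 E-boxes, CAAGTG and CACGTG, the latter with the ACGTG core inside it. The Fndc5 window held 0 E-boxes. Among genes with a negative fold change, E-boxes were found before Apln and among the windows of Sparc, Metrnl and Spp1. They were also found before Fgf21 and among the windows of Bdnf, which had positive fold changes. Whether E-boxes bear on the direction was not tested. The Fndc5 window was 80.8% G and C, that of Apln 65.2% and that of Fgf21 59.6%, against a median of 52.4% over all windows. The RefSeq table held windows for 7 of the 10 genes.

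Levels below are CPM (fragment counts per M counted, on edgeR's TMM-scaled library sizes), which compare libraries for 1 gene. Library depth bore on every value. Control replicate 2 held 0.354 M fragments (M stands for 10 to the power of 6), and the other 7 libraries held 12.6 to 20.7 M. A gene with no fragment could therefore still lie at up to 8.52 CPM in control replicate 2 (3 fragments), but only at up to 0.138 to 0.241 CPM in the others, and these limits cover counting error only. The defining genes of myotubes were present throughout: their 7 markers summed to 23524 to 26858 CPM in control and to 13524 to 19923 CPM in EPS, without overlap. None of the 7 passed the test on 8 libraries. With the replicate number as a block 5 (Ckm, Myh3, Mylpf, Tnnt3 and Myog) were lower, where 4.78% of all tested genes were. All 5 myoblast markers had negative fold changes, and none passed either fit. The 4 neuron markers were listed at 0, as were Adgre1 of macrophages and Emcn of endothelium, while the macrophage list as a whole reached 2.87 to 8.52 CPM in control and 2.90 to 29.8 CPM in EPS. Of that list, Cd68 held up to 8.52 CPM in control (3 fragments in control replicate 2) and up to 27.0 CPM in EPS. Its log2 fold change of 2.44 did not pass (adjusted p = 0.172, edgeR), nor did it with the block. Itgam (75 and 46 fragments) went the other way and was lower with the block only (-1.76, adjusted p = 0.0426, edgeR). The 5 endothelial markers summed to 0 to 1.26 CPM in control and 1.14 to 14.8 CPM in EPS. They held 5 and 181 fragments of Pecam1 and 0 and 49 of Kdr, which were too few for the test. Pecam1 ranged from 0.0462 to 10.8 CPM over the EPS libraries, and Cdh5 had 8 and 11 fragments. The 5 fibroblast markers summed to 122 to 566 CPM in control and 182 to 384 CPM in EPS. Of them Pdgfra held 8.17 ± 1.78 and 16.5 ± 3.72 CPM (SD, n = 4 each) without overlap, as for 9.32% of all tested genes in that direction. It was higher with the block (log2 fold change 0.89, adjusted p = 0.0141, edgeR) and not without it (adjusted p = 0.0542, edgeR). Col1a1, with the highest CPM of the 5, held 348 ± 206 and 268 ± 104 CPM (SD, n = 4 each) and overlapped. Its log2 fold change was -0.41 (adjusted p = 0.666, edgeR), and that of Twist2 was 0.42 (adjusted p = 0.650, edgeR). Thy1 (5 and 0 fragments) and Dpt (31 and 27) were too low for the test. In bulk RNA, fewer myotubes and less RNA per myotube cannot be told apart, and the part of these markers in the myokine values was not tested.

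None of the 9 tested genes passed when the 8 libraries were compared as 2 groups. Their log2 fold changes were negative in 7 and positive in 2, beside 6865 negative and 7122 positive over all tested genes. By edgeR's quasi-likelihood test, 0 of 9 tested genes were higher, where 2.30% of all 13987 tested genes were, and 0 were lower, where 0.758% were. At an unadjusted p under 0.05 there were 3 (Fndc5, Il15 and Bdnf), and DESeq2 and limma also passed 0. When libraries with the same replicate number were compared with each other, as a block in the same model, Fndc5, Il15, Apln and Dcn were lower: 4 of 9, against 4.78% of all tested genes, and 0 were higher, against 7.31%. Within replicates 1, 3 and 4, where both libraries were deep, 5 of the 9 (these 4 and Sparc) were lower in every pair, as were 26.8% of all tested genes. None was higher in every such pair (28.0% of all), and 4 were mixed. Whether libraries pair by number is not given by the labels, so results with the block rest on that assumption. The median log2 fold change was -0.32 over the 9 genes and 0.01 over all tested genes.

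**Figure D1:**
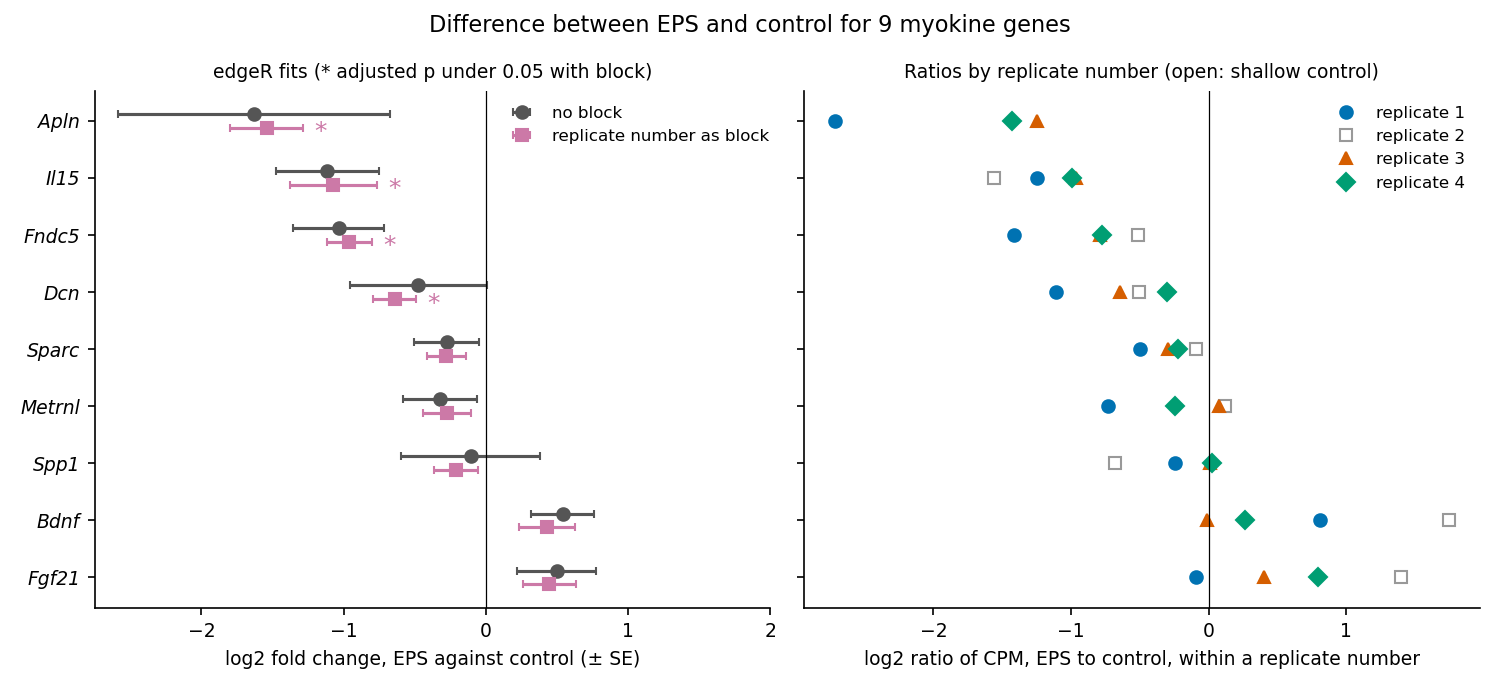
The left panel plots the log2 fold change (EPS against control) ± SE of the 9 tested genes without and with the replicate number as a block, and the right panel plots the log2 ratio of CPM within each replicate number. The 4 starred genes (Apln, Il15, Fndc5 and Dcn) lie left of 0 in every deep pair and have narrower errors with the block, least so Il15 (0.36 and 0.31).

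Among the metabolic hormones, Fndc5 was lower in EPS with the replicate block and did not pass on the 8 libraries without it. Its control libraries 1 to 4 held 52.1, 17.0, 52.7 and 47.5 CPM, and its EPS libraries held 19.6, 11.95, 30.4 and 27.7 CPM. All 3 deep control libraries lay above all 4 EPS libraries, and the groups overlapped only through control replicate 2, whose value rests on 6 fragments. The means were 42.3 ± 17.0 and 22.4 ± 8.36 CPM (SD, n = 4 each), a log2 fold change of -1.03 (SE 0.32, adjusted p = 0.114, edgeR). With the replicate block it was -0.96 (SE 0.16, adjusted p = 0.00439, edgeR), and every pair was lower, with log2 ratios of -1.41, -0.51, -0.79 and -0.78. Fndc5 lies at chr4:129136999-129144593 on mm10. Ppargc1a, the coactivator upstream of Fndc5 in muscle, held 9.48 ± 5.05 CPM in control and 5.44 ± 3.32 CPM in EPS (SD, n = 4 each). Its log2 fold change was -0.51 (SE 0.42, adjusted p = 0.560, edgeR) and passed only with the block, at -0.87 (SE 0.21, adjusted p = 0.0224, edgeR).

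Fgf21 was one of the 2 genes with a positive fold change. Control libraries 1 to 4 held 42.4, 19.9, 27.9 and 18.1 CPM and EPS libraries 39.8, 52.5, 36.8 and 31.4 CPM. The groups overlapped, since control replicate 1 exceeded 3 of the EPS libraries, and the highest value of all was EPS replicate 2. Means were 27.1 ± 11.1 and 40.1 ± 8.99 CPM (SD, n = 4 each), a log2 fold change of 0.50 (SE 0.28, adjusted p = 0.371, edgeR) that did not pass. It was 0.83 without control replicate 1, 0.28 without control replicate 4 and 0.32 without EPS replicate 2. Within pairs the log2 ratios were -0.09, 1.40, 0.40 and 0.80, and the 1.40 compares with 7 fragments in control replicate 2. Fgf21 (chr7:45613886-45615490) carries the ATF4 form printed above. Atf4 mRNA itself was 329 ± 43.5 CPM in control and 459 ± 51.1 CPM in EPS (SD, n = 4 each). Its groups did not overlap, as for 9.32% of all tested genes in that direction, but its log2 fold change of 0.48 (SE 0.17) did not pass (adjusted p = 0.154, edgeR).

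Metrnl, which encodes meteorin-like, a secreted factor of muscle and fat, held 30.7, 14.2, 30.2 and 31.1 CPM in control libraries 1 to 4 and 18.5, 15.4, 31.9 and 26.2 CPM in EPS. The highest value was EPS replicate 3 and the lowest control replicate 2, so the ranges overlapped almost fully. EPS against control gave a log2 fold change of -0.32 (SE 0.26, adjusted p = 0.552, edgeR), and the pairs went both ways. It was -0.21 without EPS replicate 2 and -0.54 without EPS replicate 3.

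Ostn, which encodes musclin (osteocrin), was close to undetected in these myotubes. Control libraries 1 to 4 held 0, 0, 1 and 0 fragments, and EPS libraries held 0, 2, 2 and 3. The pooled ratio of EPS to control was 5.04 with an exact 95% interval of 0.647 to 227 that covers counting error only. An exact two-sided permutation test of the CPM over the 8 libraries gave p = 0.143, where the smallest p this design allows is 0.0286. A gene on the other strand, Gm32312, shares exon sequence with Ostn, and how strand was treated in the counting is not stated, so these few fragments cannot be assigned between them.

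Of the signalling ligands, Il15 was the only tested gene of the 10 whose groups did not overlap. Control libraries 1 to 4 held 1.95, 2.84, 3.23 and 2.49 CPM, and EPS libraries held 0.82, 0.96, 1.66 and 1.25 CPM. Each EPS value lay below each control value, as for 4.83% of all tested genes (9.32% lay apart in the other direction, and 0 of the 9 did), although the control replicate 2 value is 1 fragment. The means were 2.63 ± 0.543 and 1.17 ± 0.367 CPM (SD, n = 4 each), a log2 fold change of -1.11 (SE 0.36, adjusted p = 0.132, edgeR). With the block it was -1.07 (SE 0.31, adjusted p = 0.0467, edgeR), just past the threshold of 0.05, and the pairs gave log2 ratios of -1.24, -1.56, -0.963 and -0.995. Il15 (chr8:82331632-82403222) is presented to other cells on Il15ra, which had 6 fragments in all control libraries and 37 in all EPS libraries and was too low for the test. Il15ra values were 0.16, 0, 0.16 and 0.05 CPM in control and 0.36, 0.80, 0.41 and 0.55 CPM in EPS. These did not overlap as measured, but the 0 in control replicate 2 allows a level above all EPS values.

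Apln, the ligand of the apelin receptor, had the most negative fold change of the 9 tested genes without the block, and the widest error. Control libraries 1 to 4 held 2.71, 0, 17.8 and 15.9 CPM, and EPS libraries held 0.41, 0.16, 7.50 and 5.91 CPM. In each group the replicates numbered 3 and 4 were the high ones, and the spread within a group was wider than the gap between groups. The means were 9.10 ± 9.05 and 3.50 ± 3.76 CPM (SD, n = 4 each), with a log2 fold change of -1.63 (SE 0.96, adjusted p = 0.401, edgeR). Within replicates 1, 3 and 4 Apln was lower each time, by log2 ratios of -2.72, -1.25 and -1.43, and no ratio was formed in replicate 2, where control held 0 fragments and EPS 2. The fit with the block gave -1.54 (SE 0.26, adjusted p = 0.0045, edgeR). Replicates 3 and 4 alone, in the fit without a block, gave -1.33 (SE 0.18, adjusted p = 0.00178, edgeR). That fit holds only the 2 libraries of each group in which Apln was high, and its SE reflects their spread alone. Its receptor gene Aplnr had 3 fragments in control and 21 in EPS, of which EPS replicates 1 and 2 held 8 and 12.

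Bdnf, the neurotrophin, was the other gene with a positive fold change. Control libraries 1 to 4 held 15.8, 8.52, 18.6 and 16.5 CPM, and EPS libraries held 27.6, 28.6, 18.4 and 19.8 CPM. EPS replicates 1 and 2 were high, while EPS replicate 3 lay just under control replicate 3. Its log2 fold change was 0.54 (SE 0.22, adjusted p = 0.220, edgeR), and the pairs gave 0.81, 1.75, -0.01 and 0.26. Replicates 1 and 2 alone gave 0.95 and replicates 3 and 4 alone 0.13. The value of control replicate 2 is 3 fragments. An antisense gene, Gm45346, overlaps Bdnf exons and had 0 fragments in control and 8 in EPS, and without a stated strand setting the reads of such partners cannot be told apart.

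The 3 matrix genes had the highest mean FPKM of the set, and only Dcn was lower in EPS, in the fit with the block. Dcn encodes decorin, a small proteoglycan that binds collagen, TGF-β and myostatin. It held 74.2, 256, 132 and 106 CPM in control libraries 1 to 4 and 34.3, 180.4, 84.9 and 86.5 CPM in EPS. Replicate 2 was highest in both groups and replicate 1 lowest in both, so the groups overlapped while every pair was lower in EPS. Pair ratios were -1.11, -0.50, -0.64 and -0.30 on the log2 scale. Without the block the log2 fold change was -0.47 (SE 0.48, adjusted p = 0.646, edgeR), and single libraries moved it: it was -0.12 without control replicate 2, -0.71 without control replicate 1, -0.20 without EPS replicate 1 and -0.94 without EPS replicate 2. With the block it was -0.64 (SE 0.15, adjusted p = 0.0219, edgeR), and leaving out both replicates 2 from that fit gave -0.69 (adjusted p = 0.0138, edgeR).

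Sparc, which encodes osteonectin, a collagen-binding glycoprotein, held 2193, 1844, 2867 and 2807 CPM in control libraries 1 to 4 and 1554, 1727, 2343 and 2406 CPM in EPS. Each EPS library lay below the control library of its number, by log2 ratios of -0.50, -0.09, -0.29 and -0.22, but the groups overlapped. The log2 fold change was -0.28 (SE 0.23, adjusted p = 0.563, edgeR) and did not pass with the block either. It was -0.17 without EPS replicate 1.

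Spp1, which encodes osteopontin, a phosphoprotein that binds integrins and CD44, did not differ beyond its spread. It held 541, 554, 1224 and 1419.7 CPM in control libraries 1 to 4 and 458, 345, 1236 and 1446 CPM in EPS. Replicates 3 and 4 were far above replicates 1 and 2 in both groups, a wider gap than that between control and EPS within any replicate number. The log2 fold change was -0.11 (SE 0.49, adjusted p = 0.937, edgeR) and turned positive when any of 4 single libraries was left out, between 0.04 and 0.15. A same-strand gene, Gm42793, overlaps Spp1 exons and held 133 fragments in control and 168 in EPS.

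**Figure D2:**
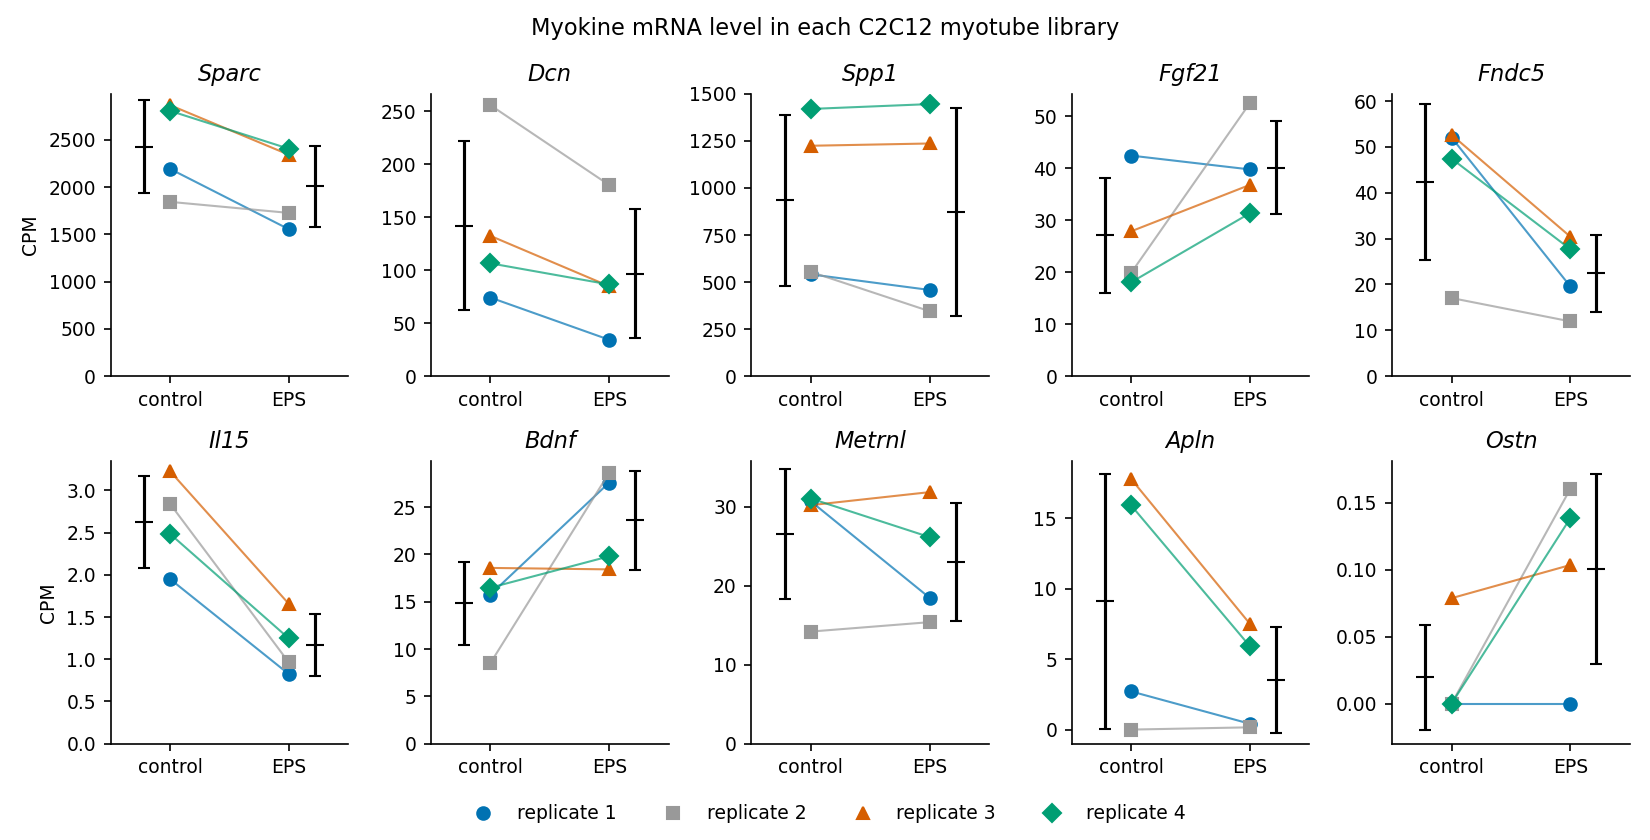
Each panel plots 1 gene in CPM on a linear axis, with a symbol for each library, a line joining libraries of the same replicate number, and the mean ± SD of 4 libraries beside each group (black). Apln and Spp1 are high in replicates 3 and 4 of both groups, Dcn is highest in replicate 2 of both, and the 4 lines of Il15, Fndc5, Sparc and Dcn all slope down to EPS.

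The likeness of replicates 3 and 4 in both groups went beyond these genes. Over 13947 genes, the deviation of a library's log2 CPM from the gene's mean correlated with log2 exon length at -0.18 in both control replicates 3 and 4 and at -0.27 and -0.24 in EPS replicates 3 and 4, but at -0.04 and 0.13 in control replicates 1 and 2 and at 0.12 and 0.18 in EPS replicates 1 and 2. These are descriptions across genes, which are not independent, and the part of length in the myokine values was not tested. Exon length ranged from 951 bases for Fgf21 to 6217 for Bdnf.

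Compared per transcript length, as deposited FPKM, the 10 genes spanned from the matrix genes down to Ostn in the same order in both groups except for Il15 and Apln, which changed places. In control, Sparc held 852 ± 170 FPKM (SD, n = 4), Spp1 565 ± 303, Dcn 71.1 ± 32.1, Fgf21 24.4 ± 7.69 and Metrnl 18.8 ± 4.09. Below them came Fndc5 at 12.5 ± 4.67 FPKM, Bdnf at 4.09 ± 1.76, Apln at 2.65 ± 2.65 and Il15 at 2.29 ± 0.529. Of neighbours in that order, Spp1 and Dcn, Dcn and Fgf21, Fndc5 and Bdnf, and Il15 and Ostn did not overlap over the 4 libraries, and the other 5 neighbouring pairs did. In EPS, Sparc held 708 ± 163 FPKM (SD, n = 4), Spp1 533 ± 337, Dcn 52.5 ± 34.6, Fgf21 34.8 ± 10.2 and Metrnl 16.2 ± 6.20. Fndc5 (6.60 ± 2.46 FPKM) and Bdnf (6.57 ± 1.62) stood level there, and Il15 (1.06 ± 0.339) and Apln (1.03 ± 1.12) likewise overlapped. Fgf21 and Metrnl, which overlapped in control, did not overlap in EPS, and Dcn and Fgf21, apart in control, overlapped. Ostn had FPKM of 0 in 3 control libraries and 1 EPS library, with 0.0693 in control replicate 3 and at most 0.146 in EPS.

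**Figure D3:**
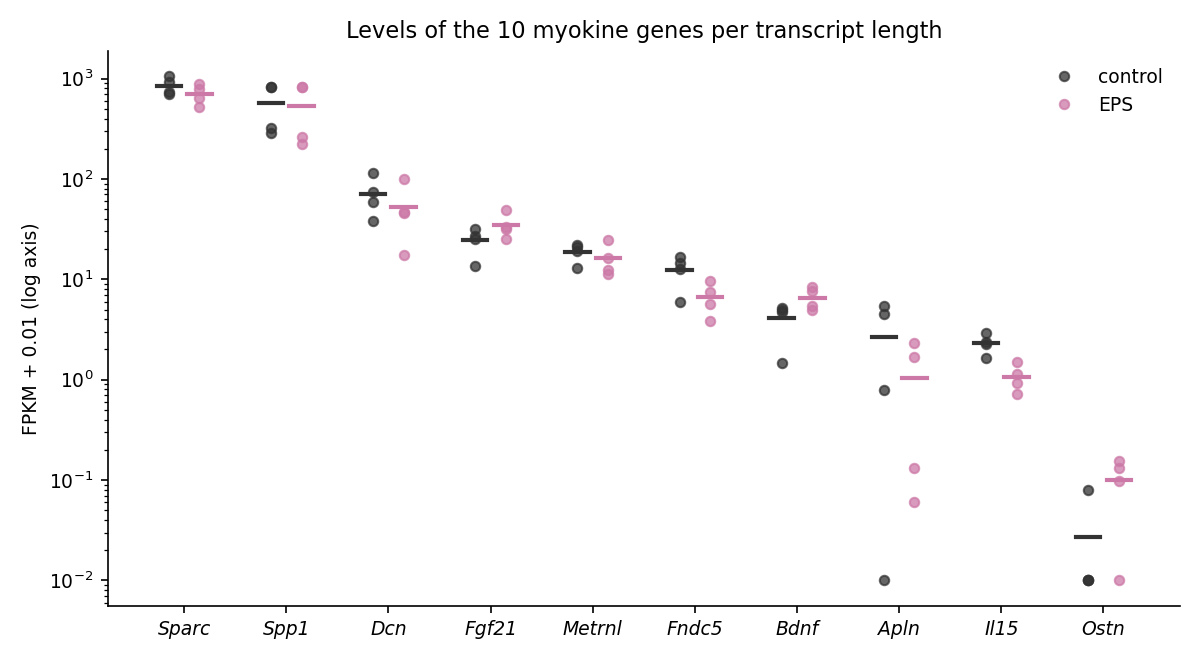
Deposited FPKM plus 0.01 is plotted on a log axis for each gene, with 1 point per library and a bar at the mean of 4 libraries, control in black and EPS in pink. Sparc and Spp1 stand above the rest in both groups, and points at the bottom are libraries listed at 0.

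No receptor gene of these myokines passed the test on 8 libraries. Of 27 receptor genes 19 were tested, none passed in either direction, 2 had an unadjusted p under 0.05, and DESeq2 and limma also passed 0. Of all tested genes 2.30% were higher and 0.758% lower. The median log2 fold change of the receptors was 0.08. Klb, the co-receptor that Fgf21 requires, had 2 fragments in all control and 2 in all EPS libraries, Ntrk2, the receptor of Bdnf, had 0 and 1, and Kit had 0 in all 8 libraries. Fgfr1, the receptor partner of Klb, was well above these at 204 ± 73.8 CPM in control and 249 ± 39.7 CPM in EPS (SD, n = 4 each), with a log2 fold change of 0.25 (SE 0.26, adjusted p = 0.656, edgeR). Itgb1, an integrin chain that binds matrix ligands, held 1888 ± 364 and 1996 ± 450 CPM, and Cd44, a receptor of osteopontin, 421 ± 205 and 339 ± 118 CPM (SD, n = 4 each). Npr3, the clearance receptor that musclin binds, held 2.98 ± 0.332 and 4.35 ± 2.77 CPM (SD, n = 4 each), a log2 fold change of 0.51 (SE 0.42, adjusted p = 0.558, edgeR). EPS replicate 2 held 8.50 CPM of Npr3 and the other EPS libraries 2.72 to 3.30 CPM, and the block gave 0.06. With the block, 2 of the 19 were lower, against 4.78% of all tested genes, and 0 higher, against 7.31%. These were Fgfr4, a further FGF receptor (log2 fold change -1.24, adjusted p = 0.0063, edgeR), and the integrin chain Itga9 (-0.94, adjusted p = 0.0336, edgeR).

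Among relatives of the myokines, Ogn fell. Of 29 genes 16 were tested, and 1 passed lower and 0 higher, against 0.758% and 2.30% of all tested genes. The median log2 fold change was -0.80, beside 0.01 over all tested genes. By an unadjusted p under 0.05 there were 5, and DESeq2 and limma passed 0 higher. Ogn encodes osteoglycin, a leucine-rich proteoglycan of the same family as decorin. It held 574, 472, 721 and 491 CPM in control libraries 1 to 4 and 138, 132, 299 and 261 CPM in EPS. The groups did not overlap, as for 4.83% of all tested genes in that direction. The log2 fold change was -1.45 (SE 0.29, adjusted p = 0.0285, edgeR), and the call was lost without control replicate 1, 3 or 4 or without EPS replicate 1, with adjusted p up to 0.115, and with limma on log2(FPKM + 1) (adjusted p = 0.200). With the block, 5 of the 16 were lower, against 4.78% of all tested genes, and 0 higher, against 7.31%. Besides Ogn they were Smoc2 of the Sparc family (log2 fold change -1.49, adjusted p = 0.00515, edgeR), Fstl1 (-0.64, adjusted p = 0.0277), and the leucine-rich proteoglycans Aspn (-1.50, adjusted p = 0.00343) and Prelp (-1.26, adjusted p = 0.00261). Bgn, which encodes biglycan, the close relative of decorin, held 945 ± 335 CPM in control and 744 ± 322 CPM in EPS (SD, n = 4 each) and did not pass either fit.

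Of the 13 regulators, all tested, Ddit3 rose and Mef2c fell, and the median log2 fold change was -0.12. That is 1 higher and 1 lower, where 2.30% and 0.758% of all tested genes were. With the block 1 was higher and 4 were lower, against 7.31% and 4.78%. Ddit3, the stress factor CHOP that acts downstream of ATF4, held 12.5, 5.68, 13.3 and 13.2 CPM in control libraries 1 to 4 and 90.7, 171, 46.1 and 47.8 CPM in EPS. Every EPS library exceeded every control library, as for 9.32% of all tested genes, and EPS replicates 1 and 2 were the highest. The log2 fold change was 2.82 (SE 0.43, adjusted p = 0.00737, edgeR), and the call held in all 8 fits that left out 1 library but not with limma on log2(FPKM + 0.1) (adjusted p = 0.0726). Mef2c, a factor of the muscle gene programme, held 979, 915, 1165 and 1148 CPM in control and 509, 457, 617 and 660.0 CPM in EPS. The groups did not overlap (4.83% of all tested genes lay apart in that direction). The log2 fold change was -0.91 (SE 0.18, adjusted p = 0.0287, edgeR). That call was lost without control replicate 1, 3 or 4 or without EPS replicate 1, with adjusted p up to 0.127, and with limma on log2(FPKM + 1) (adjusted p = 0.118). The myogenic factors Myod1 and Myog, which bind E-boxes, were lower with the block, at log2 fold changes of -1.19 (adjusted p = 0.00262, edgeR) and -1.16 (adjusted p = 0.0154, edgeR), and without it they had adjusted p of 0.0525 and 0.0767. Hif1a, the factor of the hypoxia response element, held 243 ± 52.8 and 219 ± 40.1 CPM (SD, n = 4 each), a log2 fold change of -0.13 (SE 0.20, adjusted p = 0.764, edgeR).

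Of 19 enzymes that cut or activate these proteins, 14 were tested. Against 2.30% higher and 0.758% lower of all tested genes, 0 were higher and 1, Adamts5, fell. This metalloprotease cuts proteoglycans. It held 122, 128, 82.5 and 71.0 CPM in control libraries 1 to 4 and 43.4, 36.6, 48.1 and 40.0 CPM in EPS. The groups did not overlap (4.83% of all tested genes lay apart in that direction). The log2 fold change was -1.23 (SE 0.21, adjusted p = 0.0132, edgeR). The call held in 6 of 8 fits that left out 1 library and was lost without control replicate 1 (adjusted p = 0.0620) or EPS replicate 1 (adjusted p = 0.0542), and with limma on log2(FPKM + 0.1) (adjusted p = 0.0892). Furin, the convertase of many proproteins, held 123 ± 36.9 and 128 ± 26.6 CPM (SD, n = 4 each), a log2 fold change of 0.02 (adjusted p = 0.982, edgeR). With the block, Plau (log2 fold change -1.13, adjusted p = 0.00245, edgeR) and Mmp14 (-0.53, adjusted p = 0.0389) were lower as well, and Adamts1 (0.56, adjusted p = 0.0333) was higher. That made 3 lower and 1 higher of 14, against 4.78% and 7.31% of all tested genes.

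**Figure D4:**
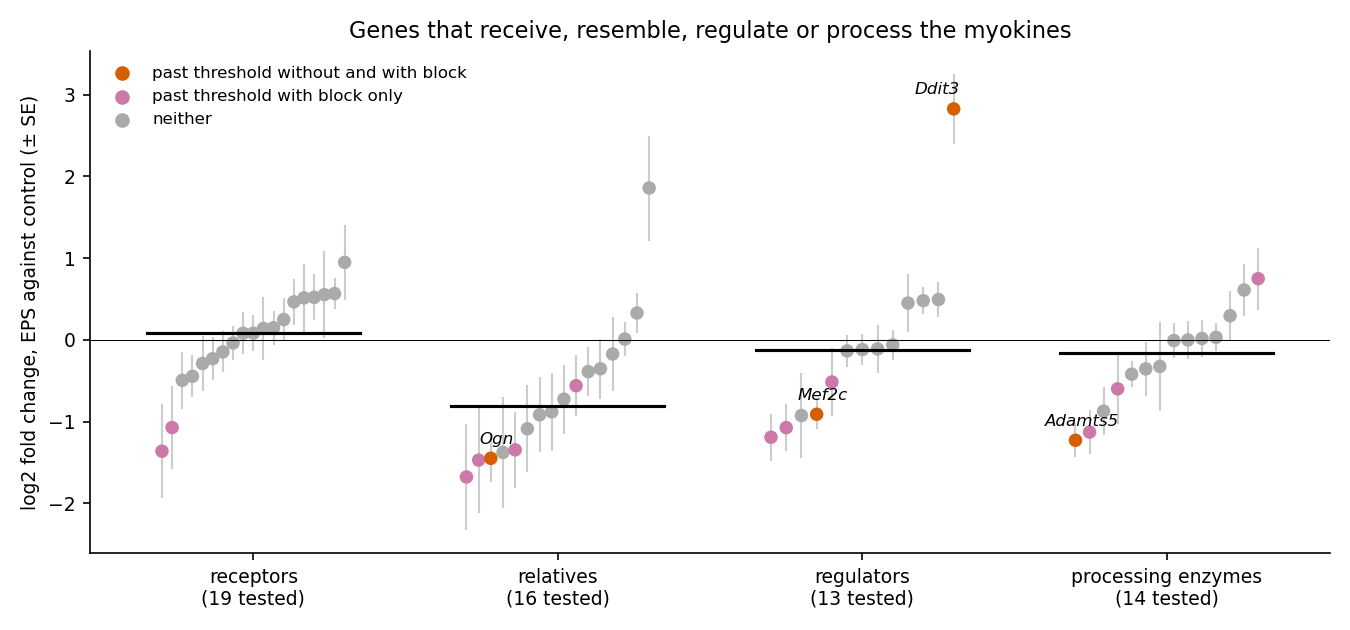
Each point is the log2 fold change (EPS against control) ± SE of 1 tested gene in the fit without the block, sorted within its list, with the black bar at the list's median. Ddit3 is the labelled gene above 0, Ogn, Mef2c and Adamts5 are the 3 below, and the bar of the relatives lies at -0.80.

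The genes whose log2 CPM across the 7 deep libraries most resembled each myokine were looked up among 10045 genes, so that high values of Pearson's r arise from the search and are given as description only, over libraries that share depth and replicate number. For Fndc5 they were Hfe2, which encodes hemojuvelin, and Eno3, the muscle enolase, both at r = 0.998. For Fgf21 they were Mthfd2, a mitochondrial folate enzyme (r = 0.986), and the creatine transporter Slc6a8 (r = 0.977). For Apln they were Pcolce, an enhancer of procollagen processing, and Lix1l, both at r = 0.998. Sparc was nearest to Myot, which encodes the Z-disc protein myotilin (r = 0.997), and to Pkp1 (r = 0.994). Metrnl was nearest to Bola3 (r = 0.994) and Sdhb, a subunit of respiratory complex II (r = 0.993). For Spp1 the splicing factor gene Snrpb2 was among the 2 nearest (r = 0.994). Bdnf was nearest to Man1a (r = 0.992) and Sema5a (r = 0.987), and Dcn to Tm6sf1 and St7 (both r = 0.988). Il15 and Ostn were below the mean of 5 CPM used for this search. None of these neighbours passed the test on 8 libraries, and with the block 4 were lower: Hfe2 (adjusted p = 0.00585, edgeR), Eno3 (0.00838), Myot (0.0234) and Pkp1 (0.0365). Of all tested genes 4.78% were lower with the block. These neighbours were chosen by likeness to the myokines in 7 of the same libraries, so their calls are no separate result.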

How the data were processed

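RNA from 4 control and 4 EPS libraries was measured, and the 16 GEO samples are these 8 libraries on 2 lanes each. Groups and replicate numbers came from the sample titles. The members and the further gene lists were chosen with earlier results of these data known. Cuffdiff 2.2.1, Cufflinks, STAR 2.5.1 and the build mm10 are listed in the submitters' processing notes, with no roles given. Per the file headers, the deposited table gives estimated fragment counts and FPKM per gene and library. Annotation release and strand setting were not stated in the sources used.

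Deposited estimated counts (93.3% whole) were rounded, and 46 genes marked as skipped for too many fragments, none a member, were left out. Counts were tested with edgeR 4.0.16 (quasi-likelihood, TMM, filterByExpr with a minimum count of 10 and total of 15, Benjamini-Hochberg over 13987 genes, threshold 0.05, tested on simulated data). Each SE is approximate, the log2 fold change over the root of its F value. Alternatives were DESeq2 1.42.0, limma 3.58.1 on log2(FPKM + 0.1) or log2(FPKM + 1), RLE scaling, no filter, a mean of at least 5 CPM, the replicate number as a block, and subsets of libraries. Same-numbered control and EPS libraries deviated together from their group means (r = 0.300, 0.214, 0.286 and 0.297 over 13987 genes for numbers 1 to 4). The labels do not say what a number marks, and the pairing was taken from these correlations in the tested data. Control and EPS libraries of different numbers were not correlated, so these values cannot show that libraries pair by number. Whether a wider grouping that joins several numbers would give the same values was not tested. Replicates of a group differed beyond sampling noise. Total depth was 0.354 to 20.7 M fragments.

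All members are named. From each list, genes past the threshold were named, or the most abundant where none passed, beside 7 set receptors and, for members with a mean of at least 5 CPM, the 2 genes of highest Pearson correlation of log2 CPM. Genes passing only with the block, Kit, Atf4, Bgn, Hif1a and Furin were added after their values were seen. Of the genes these rules select, 2 are not reported here, and the list counts leave out the 1 that was in a list. Gene positions are from GENCODE M21, on mm10, and 48051 of 48432 identifiers matched a symbol.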

Additional observations from a re-analysis of the deposited data

Results flagged for a closer look

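Fndc5 in control replicate 2 (17.0 CPM) lay far below the other control libraries, the nearest of which held 47.5 CPM. Metrnl in the same library (14.2 CPM) lay far below the nearest other control library at 30.2 CPM. These rest on 6 and 5 fragments in the library of 0.354 M fragments. Of 18 groups of 4 libraries examined by the gap between the most distant library and its neighbour, chance alone would flag about 1 in 20.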

How the results depend on the processing

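Of 160 combinations of a myokine gene's fold change and an alternative, 144 kept their direction and side of the threshold, 11 passed only under the alternative and 5 reversed. All 5 reversals were Spp1, whose log2 fold change was 0.04 without control replicate 3, 0.15 without control replicate 4, 0.11 without EPS replicate 1, 0.15 without EPS replicate 2 and 0.017 in replicates 3 and 4 alone, and ranged from -0.48 to 0.15 over the fits that left out 1 library. With the replicate block 4 myokine genes were lower, with the block but without both replicates 2 (an alternative chosen after seeing the data) 4, and in replicates 3 and 4 alone 3 (Apln, Dcn and Fndc5). The pairing by block changed no other call among the myokine genes, and leaving out each library in turn gave 0 to 0 lower and 0 to 0 higher. DESeq2 left Fndc5 at an adjusted p of 0.0501. Over all tested genes, counts higher and lower were 322 and 106 as reported. They were 659 and 288 with DESeq2, 61 and 6 with limma on log2(FPKM + 0.1), 107 and 40 on log2(FPKM + 1), 1023 and 668 with the replicate block, 1290 and 1167 with that block without both replicates 2, and 1156 and 1121 in replicates 3 and 4 alone. Replicates 1 and 2 alone gave 510 higher, and no filter 162 lower. Leaving out 1 library gave 92 to 427 higher and 22 to 167 lower. The cause of these shifts was not tested. Apln could not be tested in replicates 1 and 2 alone, nor Il15 at a mean of at least 5 CPM. Depth limits Ostn, and every value of control replicate 2.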
